A study of Mus musculus with 34 samples.

Results

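Transcripts of 10 neutrophil granule and neutrophil cytosol genes (Mpo, Elane, Prtn3, Ctsg, Ngp, Ltf, Camp, Lcn2, S100a8 and S100a9) were followed across 34 RNA-seq libraries of mouse monocytes and macrophages. The genes were chosen by name, as the rows of the deposited count table whose Entrez Gene ID maps to these symbols, and all 10 were found among the 24475 genes of the table. They are 4 genes of azurophil granule proteins, 4 genes of specific granule proteins, and the cytosolic pair S100a8 and S100a9. All 10 are protein-coding and passed the filter on low counts in both fits, of 13200 genes in the libraries from mice and 12603 in the cultures.

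With Entrez Gene ID and RefSeq position (GRCm38.p6), they are Mpo (17523, chr11:87793784-87804412), Elane (50701, chr10:79886312-79888216), Prtn3 (19152, chr10:79879667-79883174), Ctsg (13035, chr14:56099885-56102574), Ngp (18054, chr9:110419808-110423012), Ltf (17002, chr9:111019292-111042766), Camp (12796, chr9:109847377-109849456), Lcn2 (16819, chr2:32384637-32387739), S100a8 (20201, chr3:90669071-90670034) and S100a9 (20202, chr3:90692630-90695721). Prtn3 and Elane lie 3137 bases apart and S100a8 and S100a9 22595 bases apart. Camp, Ngp and Ltf share chromosome 9, with 570351 bases between Camp and Ngp and 596279 between Ngp and Ltf.

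Neutrophils form their granules one after the other while they mature in the bone marrow. Azurophil granules, filled with myeloperoxidase and serine proteases, are made in promyelocytes, and specific granules, filled with lactoferrin, cathelicidin and lipocalin, are made in myelocytes and metamyelocytes, after transcription of the azurophil genes has been switched off. Monocytes share the granulocyte-monocyte progenitor with neutrophils and some of these transcripts with its early stages. S100a8 and S100a9 are also abundant in mature classical monocytes.

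The study asked how tumors and tumor-conditioned medium shape monocytes. C57/Bl6 mice carried MC38, a colon adenocarcinoma line, or LLC, a Lewis lung carcinoma line. Cells were separated by fluorescence-activated cell sorting, and 6 groups of 4 libraries came from these mice: macrophages of MC38 tumors and of LLC tumors (TuMac), TuMon1, which are monocytes sorted from MC38 tumors as Ly6C+ CD88+ Sca1+, TuMon2, which were sorted from LLC tumors as Ly6C+ CD88+ Sca1-, and Ly6C+ spleen monocytes of mice with each tumor. Bone marrow monocytes in culture gave another 3 groups: 3 libraries after MC38 supernatant, labelled with the TuMon1 phenotype, 3 after LLC supernatant, labelled with the TuMon2 phenotype, and 4 untreated control libraries. Subset and tumor line coincide, so the effect of the one cannot be told apart from that of the other. The labels do not say whether replicates were separate animals or cultures, and the p-values measure only the spread between these samples. In sorted bulk RNA, fewer cells that express a gene and less RNA of it per cell cannot be told apart.

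Library totals ran from 13047724 to 26966603 estimated counts. Transcripts foreign to monocytes marked 5 libraries. The fat cell genes Adipoq and Car3 were at 385 to 694 and 2464 to 4626 CPM (counts scaled to a common library size, with TMM factors) in replicates 1, 2 and 3 of the MC38 spleen monocytes, against at most 6.22 and 45.1 CPM in the 29 other libraries. The collagen gene Col1a1 was at 863 CPM in replicate 3 of the MC38 supernatant cultures (at most 5.43 CPM in the 29), and the cardiac actin gene Actc1 at 66.7 CPM in control culture replicate 2 (at most 1.03 CPM). Values without these libraries are given where a call, a direction or the size of a difference depends on them.

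The promoters of 5 members are shown because their classes peaked in different groups: Mpo, Elane and Prtn3 in control cultures, Ngp and Ltf in spleen monocytes. Each runs 5′ to 3′ along the gene's strand from 250 bases before to 50 bases after the annotated start (RefSeq, GRCm38.p6). Capitals mark matches on either strand to 3 motifs: GAGGAA, bound by PU.1, the ETS factor of myeloid cells; CAACNG, bound by Myb, a factor of progenitors; and TTNNGNAA, bound by C/EBP factors, which drive granulocyte genes. The intervals are chr11:87793534-87793833 for Mpo, chr10:79886062-79886361 for Elane, chr10:79879417-79879716 for Prtn3, chr9:110419558-110419857 for Ngp and chr9:111019042-111019341 for Ltf, all on the plus strand.
Mpo: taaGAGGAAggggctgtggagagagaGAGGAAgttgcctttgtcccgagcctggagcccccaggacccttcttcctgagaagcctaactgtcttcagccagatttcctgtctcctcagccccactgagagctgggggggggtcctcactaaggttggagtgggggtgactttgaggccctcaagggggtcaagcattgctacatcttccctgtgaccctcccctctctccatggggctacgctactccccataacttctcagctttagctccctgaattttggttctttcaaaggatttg
Elane: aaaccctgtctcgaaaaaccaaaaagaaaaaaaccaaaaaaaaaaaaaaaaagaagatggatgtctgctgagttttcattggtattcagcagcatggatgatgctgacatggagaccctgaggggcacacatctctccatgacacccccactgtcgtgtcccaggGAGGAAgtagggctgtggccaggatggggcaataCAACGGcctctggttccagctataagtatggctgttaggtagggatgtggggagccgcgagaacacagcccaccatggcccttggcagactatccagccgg
Prtn3: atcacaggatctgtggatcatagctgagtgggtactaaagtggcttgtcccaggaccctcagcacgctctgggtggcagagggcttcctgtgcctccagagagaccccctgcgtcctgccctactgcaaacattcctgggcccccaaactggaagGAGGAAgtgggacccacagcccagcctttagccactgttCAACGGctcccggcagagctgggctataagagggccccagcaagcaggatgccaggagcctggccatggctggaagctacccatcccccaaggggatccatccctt
Ngp: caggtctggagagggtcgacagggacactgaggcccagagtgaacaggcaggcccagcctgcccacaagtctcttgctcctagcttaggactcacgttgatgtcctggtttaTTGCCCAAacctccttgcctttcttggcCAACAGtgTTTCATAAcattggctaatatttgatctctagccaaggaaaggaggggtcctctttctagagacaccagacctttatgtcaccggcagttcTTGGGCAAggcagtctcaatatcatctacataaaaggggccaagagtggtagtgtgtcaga
Ltf: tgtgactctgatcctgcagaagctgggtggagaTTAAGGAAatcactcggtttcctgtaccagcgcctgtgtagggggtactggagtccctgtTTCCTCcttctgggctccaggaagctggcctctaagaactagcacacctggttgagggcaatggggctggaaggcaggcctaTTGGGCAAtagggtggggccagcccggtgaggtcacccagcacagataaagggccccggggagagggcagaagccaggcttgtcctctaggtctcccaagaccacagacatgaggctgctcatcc

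The neighbors Elane and Prtn3 had the same pair of matches in the same order, GAGGAA at -85 followed by CAACGG at -51 in Elane, and GAGGAA at -95 followed by CAACGG at -56 in Prtn3 (positions of the first base relative to the start). GAGGAA was found in 4 of 4 azurophil promoters, 2 of 4 specific granule promoters and 1 of the 2 S100 promoters, and in 28.3% of 27025 gene promoters of the same length. CAACNG was in 3 azurophil, 2 specific granule and 0 S100 promoters, against 35.1% of all. TTNNGNAA was in 0 azurophil promoters, in 3 specific granule promoters (Ngp, Ltf and Lcn2) and in both S100 promoters, against 40.7% of all. Ngp had TTGGGCAA at -11 and Ltf the same letters at -75. In Lcn2 a CAACNG match overlapped the TTNNGNAA match. A match describes the letters only and says nothing of binding in these cells.

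Mpo, Elane, Prtn3 and Ctsg make the azurophil granule: myeloperoxidase, which forms hypochlorous acid, and the serine proteases neutrophil elastase, proteinase 3 and cathepsin G. Mpo was at 0.306, 0, 0.0565 and 0.208 CPM in TuMon1, against 8.65, 10.1, 7.52 and 25.7 CPM in MC38 spleen monocytes. It was at 0.182, 0.32, 0.78 and 0.472 CPM in TuMon2, against 29.5, 54.4, 44.6 and 55.3 CPM in LLC spleen monocytes. After MC38 supernatant it was at 2.92, 2.91 and 1.27 CPM and after LLC supernatant at 0.284, 0.334 and 0.481 CPM, against 853, 689, 858 and 811.5 CPM in control cultures. Every tumor or supernatant library lay below every library of its own comparison group, and the control cultures stood above all spleen libraries. In the 8 macrophage libraries Mpo did not exceed 0.084 CPM, with 3 counts over the MC38 and 3 over the LLC macrophages.

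Elane repeated this order. It had 0 counts in all 8 macrophage libraries and 2 counts over the 4 TuMon1 libraries, and averaged 0.149 ± 0.131 CPM (SD, n = 4) in TuMon2. The spleen monocytes held 8.59, 7.69, 4.82 and 19.7 CPM in mice with MC38 and 20.9, 40.4, 33.5 and 32.1 CPM in mice with LLC. Ctsg had 0 counts in the macrophages, 3 counts over TuMon1 and 7 over TuMon2, with spleen values of 0.895 to 2.25 CPM (MC38) and 2.01 to 4.19 CPM (LLC). In cultures with MC38 supernatant Elane averaged 2.62 ± 0.894 CPM, and with LLC supernatant 0.342 ± 0.0734 CPM (n = 3 each), against 340.2 ± 41.5 CPM in control cells (n = 4). Ctsg averaged 0.547 ± 0.0759 CPM with MC38 supernatant, and with LLC supernatant 0.219 ± 0.0995 CPM, against 101 ± 10.3 CPM in control cells. For both genes the control cultures lay above every other library.

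Prtn3 was the azurophil gene with the highest level in tumor monocytes. It was at 0.713, 0.966, 0.792 and 1.30 CPM in TuMon1, against 7.57, 8.52, 5.54 and 18.0 CPM in MC38 spleen monocytes. In TuMon2 it was at 4.63, 3.73, 6.16 and 8.67 CPM, against 22.7, 31.6, 27.2 and 32 CPM in LLC spleen monocytes. The supernatant cultures held 9.97, 9.88 and 6.38 CPM (MC38) and 6.65, 6.12 and 7.13 CPM (LLC), against 227, 155, 202 and 206 CPM in control cultures. In the order of the 9 group means, MC38 spleen monocytes, the MC38 and LLC supernatant cultures and TuMon2 followed each other, and each overlapped the next. Macrophages had 0.191 ± 0.107 CPM (MC38) and 0.499 ± 0.419 CPM (LLC). Prtn3 made up 70.0% to 87.5% of the azurophil counts in TuMon1 and 84.3% to 94.4% in TuMon2, against 24.2% to 31.3% in the spleen libraries of both tumors. In culture the share was 59.4% to 65.3% after MC38 and 86.8% to 89.1% after LLC supernatant, against 12.8% to 14.6% in control cultures.

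**Figure D1:**
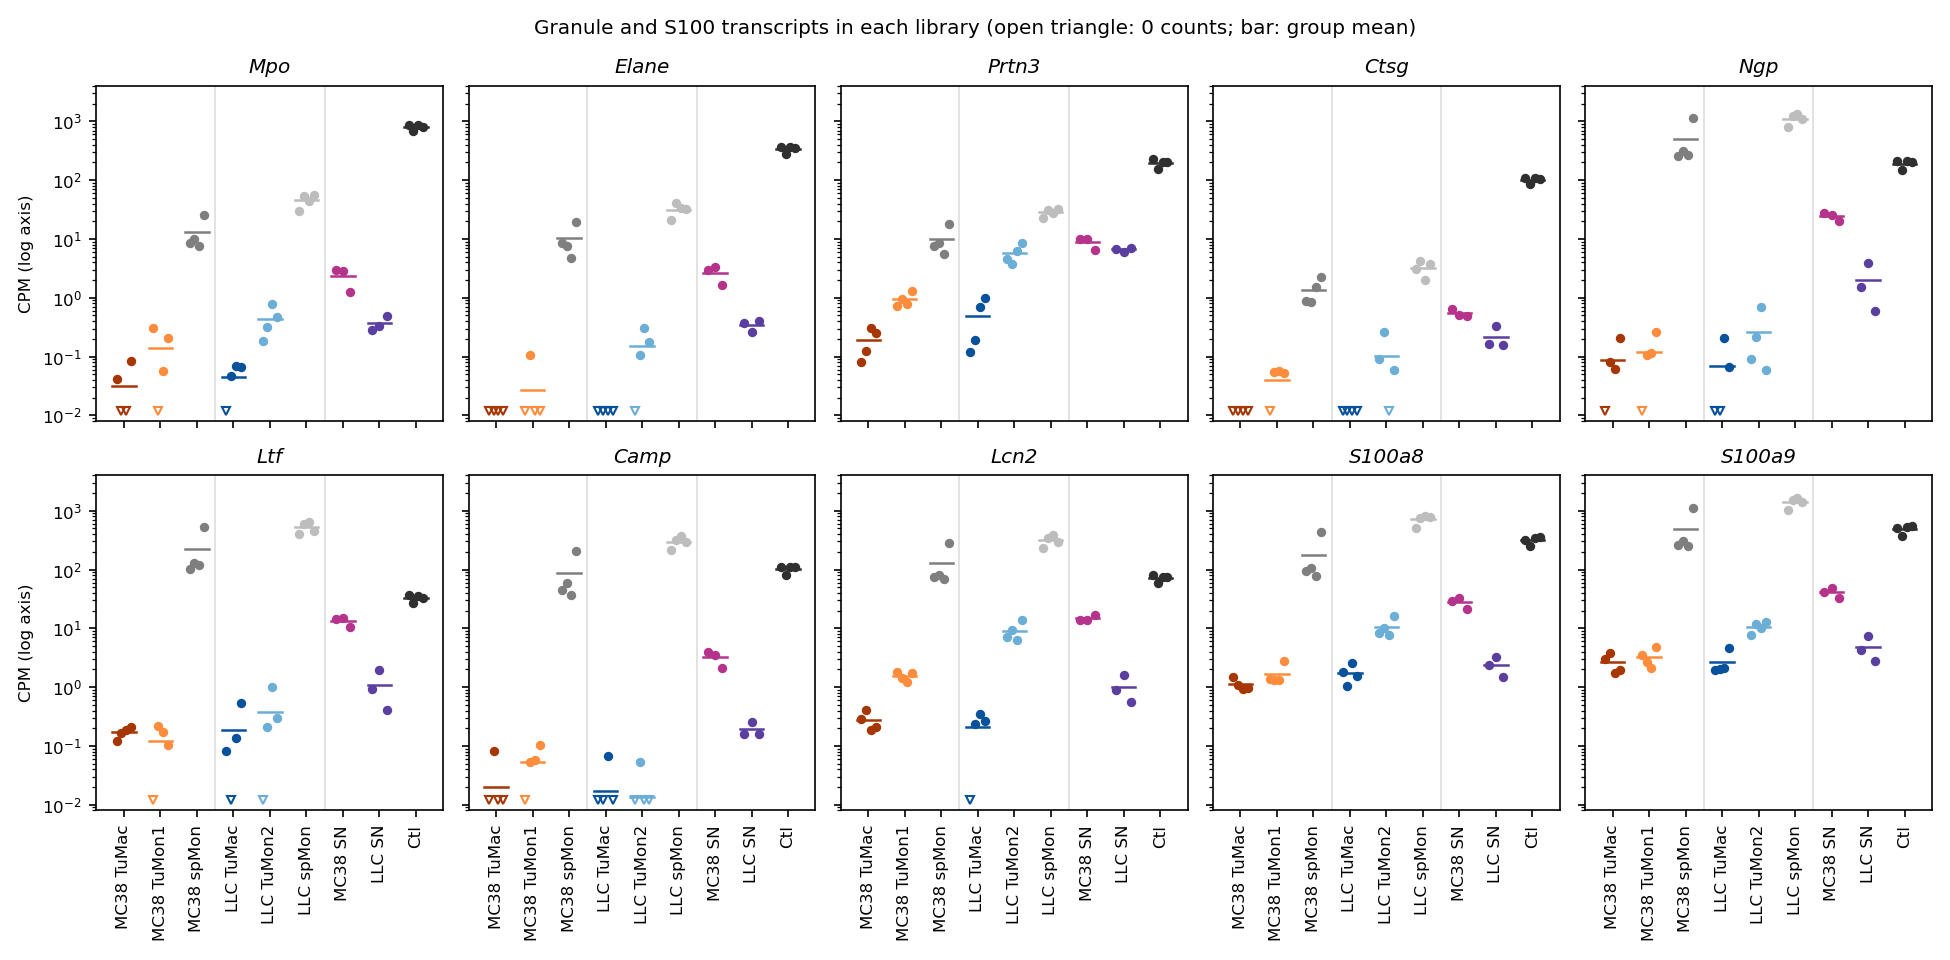
CPM of each of the 10 genes in every library (points) with the group mean (bar), by group along the x axis and on a log y axis; libraries at 0 counts are drawn at the foot of the axis. Azurophil genes peak in control cultures (Mpo mean 803 CPM), specific granule genes and S100a8 and S100a9 peak in LLC spleen monocytes (S100a9 mean 1408 CPM), and every library from a tumor lies below the spleen libraries of the same tumor line for all 10.

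Ngp, Ltf, Camp and Lcn2 make the specific granule: neutrophilic granule protein, the iron-binding lactoferrin, cathelicidin, which is cut into an antimicrobial peptide, and lipocalin 2, which captures bacterial siderophores. Ngp was at 0, 0.107, 0.113 and 0.26 CPM in TuMon1, against 258, 311, 263 and 1149.8 CPM in MC38 spleen monocytes. It was at 0.0909, 0.213, 0.702 and 0.059 CPM in TuMon2, against 794, 1221, 1322 and 1108 CPM in LLC spleen monocytes. After supernatant it was at 28.0, 25.9 and 20.2 CPM (MC38) and 1.5, 3.86 and 0.601 CPM (LLC), against 209, 148, 209 and 201 CPM in control cultures. No library of a tumor or supernatant group reached its comparison group, and here the spleen monocytes, not the control cultures, were highest.

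For Ltf the spleen monocytes were also highest. It averaged 0.122 CPM in TuMon1, against 219 ± 205 CPM in MC38 spleen monocytes, and 0.381 ± 0.44 CPM in TuMon2, against 526 ± 119 CPM in LLC spleen monocytes (SD, n = 4 each). Camp was down to 4 counts over TuMon1 and 1 count over TuMon2, against means of 86.6 ± 79.7 CPM (MC38) and 299 ± 63.6 CPM (LLC) in the spleen. After MC38 supernatant Ltf averaged 13.3 ± 2.48 CPM, and after LLC supernatant 1.1 ± 0.795 CPM (n = 3 each), against 32.9 ± 4.19 CPM (n = 4) in control cells. Camp averaged 3.21 ± 0.974 CPM with MC38 supernatant, and with LLC supernatant 0.194 ± 0.0567 CPM, against 104 ± 14.8 CPM in control cells, which thus stood between LLC and MC38 spleen monocytes. Of all members, Ltf stood nearest to its control level after MC38 supernatant, yet the groups did not overlap. In the macrophages of both tumors, Ngp, Ltf and Camp averaged at most 0.188 CPM.

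Lcn2 was the specific granule gene with the highest level in tumor monocytes. It was at 1.83, 1.45, 1.24 and 1.72 CPM in TuMon1, against 74.1, 80.1, 68.0 and 288 CPM in MC38 spleen monocytes. In TuMon2 it was at 7.0, 9.28, 6.32 and 13.7 CPM, against 229, 346, 389.6 and 289 CPM in LLC spleen monocytes. The supernatant cultures averaged 15 ± 1.59 CPM (MC38) and 1.02 ± 0.528 CPM (LLC; n = 3 each), against 72.9 ± 8.82 CPM (n = 4) in controls. Its share of the specific granule counts was 78.6% to 100% in TuMon1 and 78.6% to 98.7% in TuMon2, against 13.3% to 15.5% in spleen monocytes of both tumors. The shares in culture were closer together, 23.3% to 33.9% after MC38 and 20.8% to 32.6% after LLC supernatant, against 17.6% to 19.0% in controls. TuMon1 shares rest on few counts, 44 to 72 per library over the 8 granule genes.

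S100a8 and S100a9 encode the subunits of calprotectin, a calcium- and zinc-binding protein that is also made by monocytes and signals through TLR4. S100a9 was at 3.46, 2.68, 2.09 and 4.89 CPM in TuMon1, against 257, 304, 249.8 and 1133 CPM in MC38 spleen monocytes. It was at 7.63, 11.9, 10.1 and 13 CPM in TuMon2, against 1010.3, 1547, 1651 and 1425 CPM in LLC spleen monocytes. S100a8 was at 1.30 to 2.76 CPM in TuMon1, against 77.5 to 432 CPM in the MC38 spleen libraries, and at 7.64 to 16.5 CPM in TuMon2, against 502 to 801 CPM in the LLC spleen libraries. Both genes kept a low level in macrophages, with means of 1.12 CPM (MC38) and 1.75 CPM (LLC) for S100a8 and of 2.63 CPM (MC38) and 2.65 CPM (LLC) for S100a9. The ratio of S100a9 to S100a8 counts was not constant: it was 1.61 to 2.52 in TuMon1, against 2.62 to 3.22 in MC38 spleen monocytes, and 0.789 to 1.32 in TuMon2, against 1.8 to 2.06 in LLC spleen monocytes. The spleen groups did not overlap in this ratio, nor did either tumor monocyte group overlap its own spleen group. TuMon1 ratios rest on only 23 to 53 S100a8 counts per library, and the narrow gap between 2.52 and 2.62 was not tested against counting error. In macrophages the ratio, at 1.87 to 3.44 (MC38) and 0.816 to 2.96 (LLC), overlapped that of the spleen.

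Per kilobase of transcript, the members could be ranked within a group. In control cultures the highest were S100a9 (952 CPM per kb), S100a8 (655), Elane (346) and Mpo (292). In LLC spleen monocytes S100a9 (2714 CPM per kb) and S100a8 (1468) were again on top, followed by Ngp at 909.6 CPM per kb, Camp at 395 and Lcn2 at 343, while Elane stood at 32.2, Prtn3 at 27.7 and Mpo at 16.7. Azurophil genes held 35.7% to 41.7% of the counts of the 8 granule genes in TuMon1 and 31.2% to 47.4% in TuMon2, against 2.94% to 5.09% in MC38 and 3.77% to 5.43% in LLC spleen monocytes. Both tumor monocyte groups lay above all 8 spleen libraries. In tumor monocytes this share mostly sets Prtn3, at 70.0% to 94.4% of the azurophil counts, against Lcn2, at 78.6% to 100% of the specific granule counts. It therefore does not describe each class as a whole. In culture the share was 16.4% to 22.2% after MC38 supernatant and 47.9% to 82.6% after LLC supernatant, against 77.7% to 79.2% in controls. After LLC supernatant Prtn3 made up 86.8% to 89.1% of the azurophil counts. Spleen and culture libraries may differ in more than their source and were set side by side with no test.

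**Figure D2:**
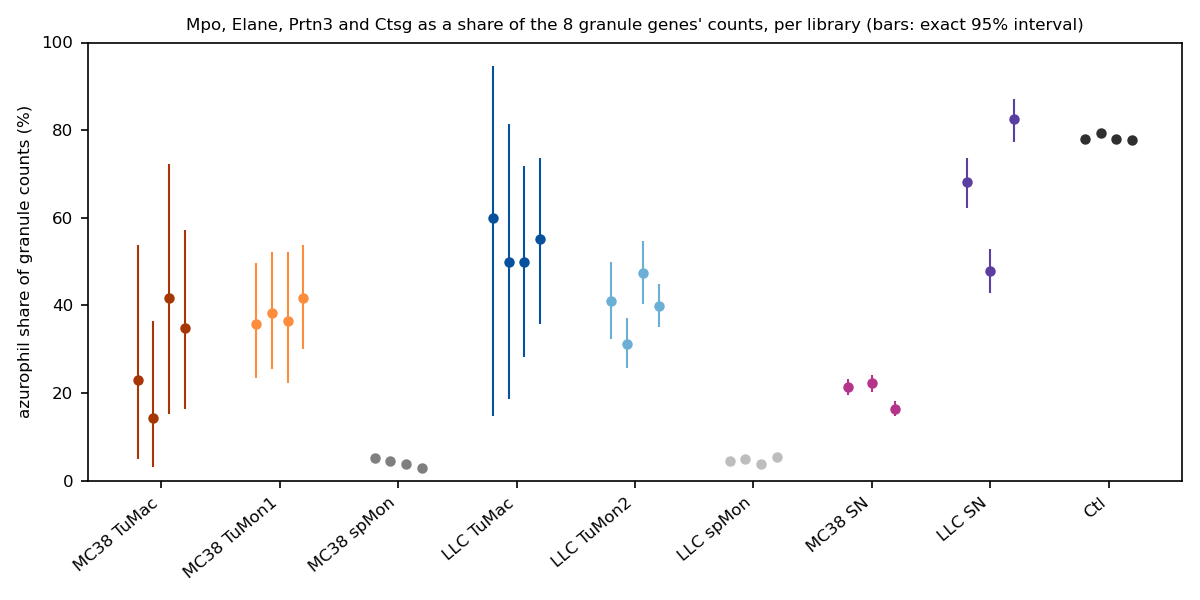
Share of azurophil genes (Mpo, Elane, Prtn3, Ctsg) in the counts of the 8 granule genes, in percent, for each library (points) with exact 95% binomial intervals, which cover counting error only. In tumor monocytes most azurophil counts are Prtn3 and most specific granule counts are Lcn2. Spleen monocytes lie at 2.94% to 5.43% and control cultures at 77.7% to 79.2%; the macrophage libraries rest on 5 to 29 counts and have the widest intervals.

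The first question of the design was how monocytes inside a tumor differ from those in the spleen of mice with the same tumor. All 10 members were lower in TuMon1 than in MC38 spleen monocytes, and all 10 were lower in TuMon2 than in LLC spleen monocytes. Over all 13200 genes tested, 36.6% were lower in the first comparison and 34% in the second, by edgeR's quasi-likelihood test with Benjamini-Hochberg adjustment at 0.05. The libraries did not overlap for any of the 10 in either comparison, which held among all genes for 27.3% in MC38 and 32.2% in LLC. With all libraries the median log2 difference of the members was -6.97 in MC38 and -6.86 in LLC, beside -0.04 and -0.05 over all genes. The MC38 median includes the spleen libraries with foreign RNA, and MC38 differences without them are given below. Mpo, Elane, Ctsg, Ngp, Ltf and Camp averaged under 1 CPM in every tumor group and so passed the filter on low counts through the spleen libraries, which makes these counts and medians a description; no p is given for these 6 genes against the spleen.

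In MC38 tumors, Ngp fell by 11.95 ± 0.73 on the log2 scale and Ltf differed by -10.77 ± 0.77. The ± of a log2 difference is an approximate SE, its size divided by the square root of the test's F. It is a rough value where a group has few counts. Mpo differed by -6.42 ± 0.54, S100a9 by -7.21 ± 0.54, S100a8 by -6.72 ± 0.57 and Lcn2 by -6.35 ± 0.50 (edgeR adjusted p = 1.11e-09). Prtn3 had the smallest difference, -3.39 ± 0.42 (adjusted p = 3.1e-07). For Elane and Ctsg, with 2 and 3 counts over TuMon1, the ratios of spleen to tumor level were 341 (95% counting interval 94.2 to 2824) and 32.9 (11 to 162). Such intervals and the floors below cover counting error only, since PCR reads without molecular identifiers are not independent molecules. Without the foreign-RNA libraries, which leaves 1 MC38 spleen library that is assumed to vary like the other groups, all 10 remained lower, from -4.26 for Prtn3 to -13.16 for Ngp. Lcn2 then stood at -7.52, S100a8 at -7.99 and S100a9 at -8.43, each further below 0 than with all libraries.

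In LLC tumors, Ngp fell by 12.06 ± 0.71 on the log2 scale. Ltf differed by -10.44 ± 0.71 and Elane by -7.65 ± 0.60. Mpo differed by -6.69 ± 0.48, S100a9 by -7.03 ± 0.53 and S100a8 by -6.04 ± 0.51. The smallest differences were those of Prtn3 (-2.28 ± 0.37, edgeR adjusted p = 1.23e-05), Ctsg (-4.75 ± 0.60) and Lcn2 (-5.08 ± 0.44). Camp had 1 count over TuMon2 and 23696 over LLC spleen monocytes, a spleen to tumor ratio of 18414 (95% counting interval 3305 to 727351). As in MC38, Ngp and Ltf were among the largest differences and Prtn3 had the smallest.

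**Figure D3:**
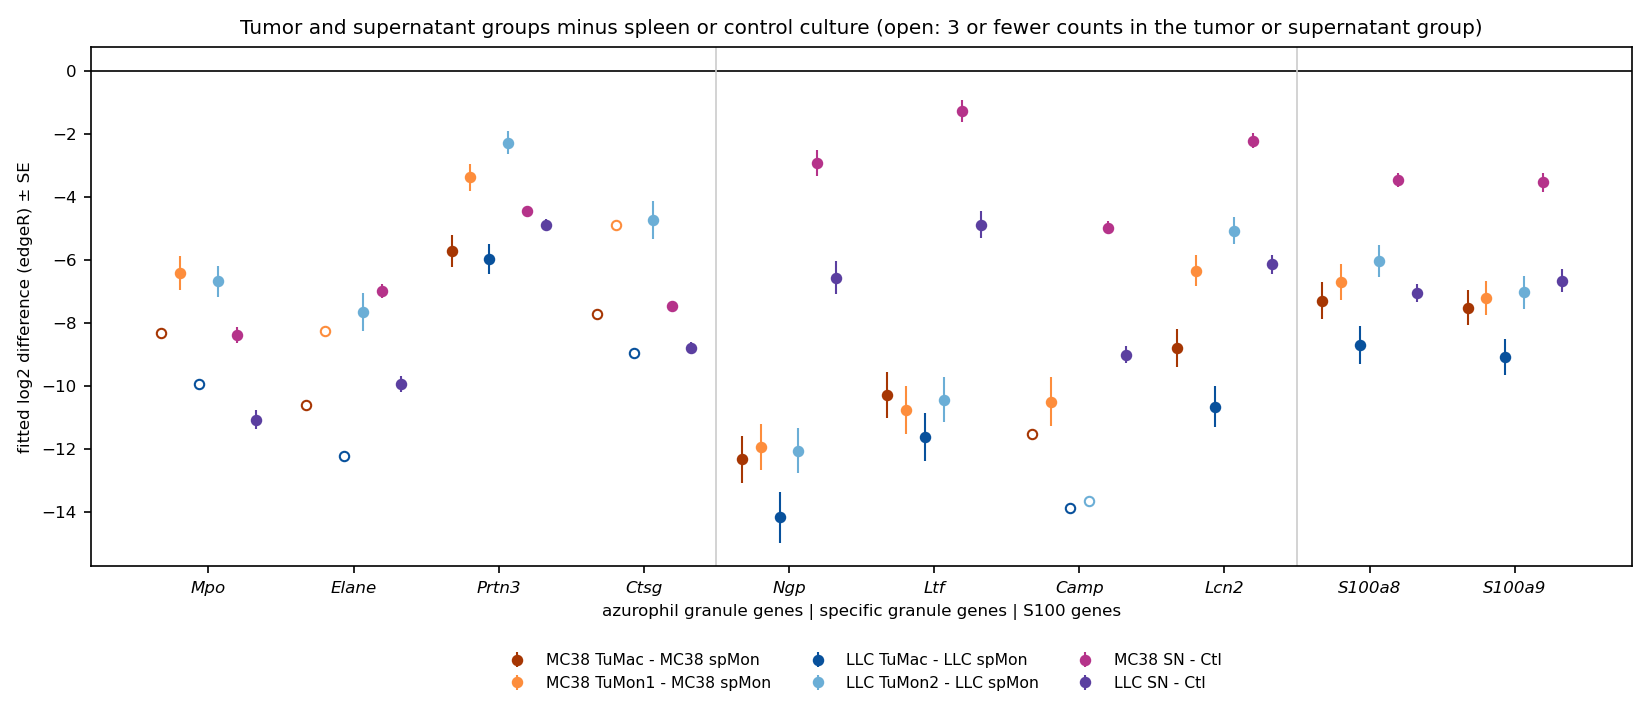
Log2 difference with approximate SE of each member in the comparisons of tumor with spleen groups and of supernatant with control cultures (edgeR). Open symbols mark members with 3 counts or fewer over the tumor or supernatant group, whose fitted value depends on the prior count. All values lie below 0, from -1.27 (Ltf, MC38 supernatant) to -14.18 (Ngp, LLC macrophages).

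Tumor macrophages were compared with the same spleen monocytes, so the comparisons share their spleen libraries with those above. All 10 members were lower in MC38 macrophages, where 36.3% of all genes were lower, and all 10 in LLC macrophages, where 31.5% were. Again the libraries did not overlap for any member, beside 27.1% of all genes in MC38 and 28.6% in LLC. Ngp differed by -12.34 ± 0.74 (MC38) and -14.18 ± 0.80 (LLC), S100a9 by -7.52 ± 0.55 (MC38) and -9.09 ± 0.59 (LLC), and Prtn3 by -5.73 ± 0.52 (MC38) and -5.97 ± 0.48 (LLC). Against a floor of 3 counts over the macrophage group, Elane was at least 269-fold lower in MC38 and at least 827-fold lower in LLC macrophages, and Ctsg at least 38.8-fold and at least 81.1-fold lower. Without the foreign-RNA libraries, and so with 1 MC38 spleen library, all 10 remained lower in MC38 macrophages, with S100a9 at -8.74, Ngp at -13.55 and Prtn3 at -6.60. In all libraries the median log2 difference with such genes at their bound was -8.21 in MC38 and -9.82 in LLC.

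Within a tumor, macrophages were set against monocytes. In LLC tumors 7 of the 10 members were lower in macrophages, where 26.3% of all genes were lower. Prtn3 differed by -3.69 ± 0.48 (edgeR adjusted p = 1.17e-06), Lcn2 by -5.58 ± 0.77 (5.13e-06), S100a8 by -2.66 ± 0.56 (0.000473) and S100a9 by -2.06 ± 0.50 (0.00178). Mpo had 3 counts over the macrophages and 26 over TuMon2. Elane (at least 3.80-fold lower) and Ctsg (at least 2.96-fold lower) had none in macrophages, with 9 and 7 counts over TuMon2, 5 of the 7 in 1 library. Mpo, Elane and Ctsg passed the filter on low counts through the spleen libraries, so no p is given for these 3. With only macrophages and TuMon2 in the fit the other 4 were called and these 3 did not pass the filter. In MC38 tumors 2 members were lower in macrophages, where 27.9% of all genes were lower: Prtn3 by -2.34 ± 0.61 (adjusted p = 0.00271) and Lcn2 by -2.45 ± 0.88 (adjusted p = 0.0245). The share of higher among all called genes was 47.1% in MC38 and 52.6% in LLC, and with upper quartile scaling 58.1% and 66.1%. Between MC38 and LLC macrophages edgeR called 0 members (45.3% of all genes in either direction), with 0 at an unadjusted p under 0.05, and DESeq2 called 1, Prtn3. Elane and Ctsg had 0 counts in both macrophage groups and Mpo 3 in each, too few to be called. The absence of calls is thus no sign that the members were equal.

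In culture, the comparison asked what tumor supernatant does to bone marrow monocytes in the absence of a tumor. All 10 members were lower after MC38 supernatant than in control cultures, where 32.5% of 12603 genes were lower, and all 10 after LLC supernatant, where 36.1% were. No member's libraries overlapped, beside 32.1% of all genes lower without overlap after MC38 and 37.2% after LLC supernatant. The median log2 difference was -4.01 after MC38 and -6.86 after LLC supernatant, beside 0.05 and -0.07 over all genes. Ctsg after either supernatant, and Mpo, Elane and Camp after LLC supernatant, averaged under 1 CPM there and passed the filter on low counts through other cultures, so these counts and medians are a description too. Both comparisons share the 4 control libraries. Without the foreign-RNA libraries all 10 remained lower in each, from -1.21 (Ltf) to -8.14 (Mpo) after MC38 supernatant.

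The medians of the classes differed after MC38 supernatant, with no test between them. Azurophil genes had a median of -7.24, with Mpo at -8.39 ± 0.25 (edgeR adjusted p = 1.34e-09), Ctsg at -7.48 ± 0.18, Elane at -7.00 ± 0.21 and Prtn3 at -4.47 ± 0.17. Specific granule genes had a median of -2.58, with Camp at -4.99 ± 0.20, Ngp at -2.92 ± 0.41 (adjusted p = 0.00026), Lcn2 at -2.23 ± 0.24 (2.15e-05) and Ltf at -1.27 ± 0.35 (0.00998). S100a8 differed by -3.49 ± 0.22 and S100a9 by -3.55 ± 0.30. After LLC supernatant Mpo differed by -11.08 ± 0.30, Elane by -9.95 ± 0.26, Camp by -9.02 ± 0.27, Ngp by -6.57 ± 0.52 and Ltf by -4.89 ± 0.43 (adjusted p = 8.02e-06). The class medians there were -9.38 for azurophil, -6.36 for specific granule and -6.86 for the S100 genes.

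Set against each other, MC38 and LLC supernatant left different levels. Of the 10 members 9 were higher after MC38 supernatant, where 21.6% of all genes were higher. The difference was 4.03 ± 0.29 for Camp (edgeR adjusted p = 5.23e-06), 3.91 ± 0.29 for Lcn2, 3.65 ± 0.48 for Ngp, 3.62 ± 0.42 for Ltf, 3.57 ± 0.26 for S100a8 and 3.12 ± 0.32 for S100a9. Among azurophil genes it was 2.95 ± 0.29 for Elane, 2.69 ± 0.34 for Mpo (adjusted p = 0.000194) and 1.32 ± 0.26 for Ctsg. Prtn3 differed by 0.43 ± 0.16 (adjusted p = 0.0572) and passed with a stricter filter (0.0416), with only the groups compared (0.0498) and without the foreign-RNA libraries (0.60, adjusted p = 1.39e-05).

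Between tumors the direction was the other one. In TuMon1 4 of 10 members were lower than in TuMon2, where 22.1% of all genes were lower: Prtn3 (-2.62 ± 0.43, edgeR adjusted p = 2.91e-05), Lcn2 (-2.56 ± 0.53, 0.00051), S100a8 (-2.67 ± 0.55, 0.000564) and S100a9 (-1.70 ± 0.48, 0.00689). None was higher, beside 26.8% of all genes. The other 6 had at most 26 counts over a group, and DESeq2 called Mpo in addition (-1.61, adjusted p = 0.0227). These 4 were also the members with the most counts in tumor monocytes. Whether the difference from spleen was unequal between the tumors was tested as an interaction, which by edgeR called 0 members, with 0 at an unadjusted p under 0.05, and 42.9% of all genes. DESeq2 called 0 members in the interaction, with 3 at an unadjusted p under 0.05. Without the foreign-RNA libraries, and so with 1 MC38 spleen library, edgeR called Prtn3 (-1.98), Lcn2 (-2.45), S100a8 (-1.96) and S100a9 (-1.40).

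The size of the difference between spleen monocytes of mice with MC38 and with LLC depended on the libraries kept. All 10 members were lower in mice with MC38, from -1.15 ± 0.39 for Ngp to -1.99 ± 0.42 for S100a8 (median -1.52; edgeR adjusted p from 0.000347 for Mpo to 0.0464 for Ctsg), where 14% of all genes were lower. The share of higher calls over all genes was 50.7%, and 62.1% with RLE and 66.8% with upper quartile scaling. MC38 spleen replicate 4, the only one of its group without the fat cell transcripts (Adipoq at 0.136 CPM), exceeded the mean of replicates 1 to 3 by 2.08-fold (Ctsg) to 4.62-fold (S100a8). It lay within the range of the LLC spleen libraries for 5 of the 10 members. For Mpo, Elane, Prtn3, Camp and S100a8 it lay below that range, with S100a8 at 432 CPM against at least 502 CPM. In that library the monocyte genes Csf1r, Ly6c2 and Ccr2 were 1.31-fold, 1.34-fold and 1.28-fold above the mean of the other 3 and the neutrophil gene Ly6g 2.22-fold. Without the foreign-RNA libraries, and so with 1 MC38 spleen library that is assumed to vary like the other groups, 0 members were called (2 at an unadjusted p under 0.05). Ngp and Ltf then stood at 0.06 and 0.01, and the other 8 were still below 0, from -0.11 for Lcn2 to -0.82 for Mpo. With only the groups compared 2 were called, Mpo and Prtn3. The part of the foreign transcripts in the spleen difference was not tested, and a fit with 1 library in a group has less power to call.

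**Figure D4:**
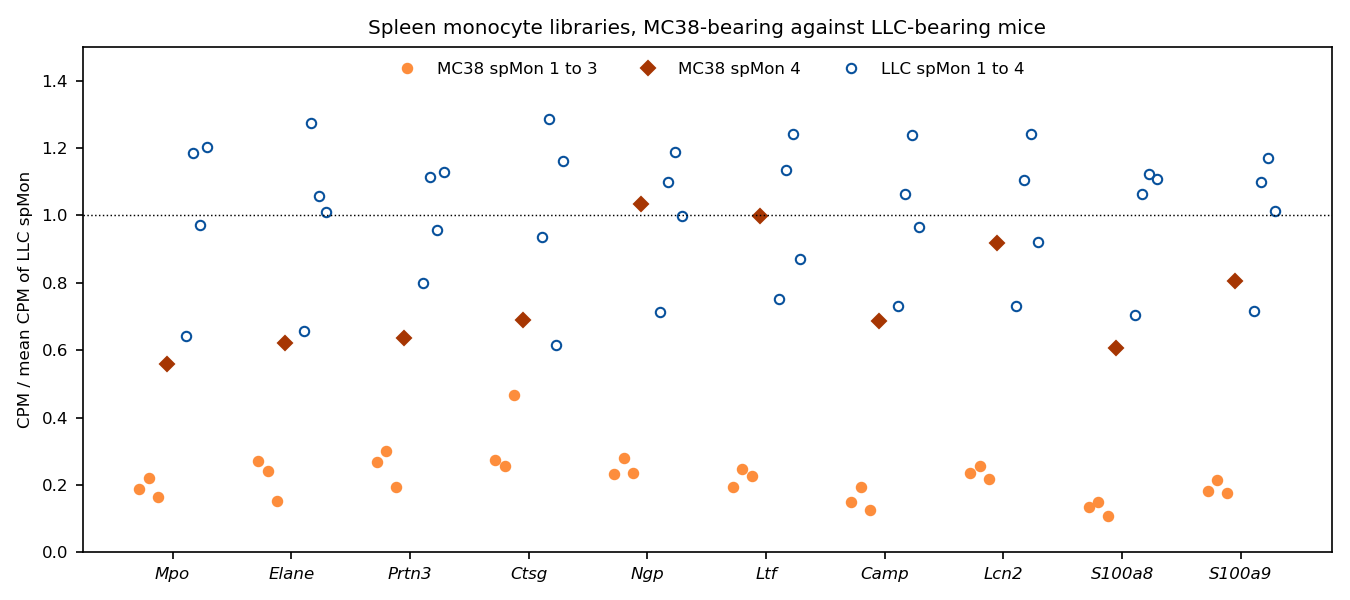
Level of each member in the 4 MC38 spleen libraries, divided by the mean of the 4 LLC spleen libraries, on a linear axis; replicates 1 to 3 carry fat cell transcripts and replicate 4 does not. Replicate 4 lies above the other 3 for all 10 members, by 2.08-fold to 4.62-fold over their mean.

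Other granule genes did not fall as one block. Among all genes, 33.5% rose in TuMon1, 28.6% in TuMon2, 35.6% in MC38 macrophages, 33.1% in LLC macrophages, 35.4% after MC38 and 32.3% after LLC supernatant. In the same order, 36.6%, 34%, 36.3%, 31.5%, 32.5% and 36.1% fell. These shares belong beside the list counts below. Of 8 other genes of the early granule program, 4 rose and 4 fell in TuMon1, and likewise in TuMon2, in both macrophage groups and after MC38 supernatant. Ctsc, the cathepsin that activates the granule serine proteases, rose by 2.56 ± 0.10 in TuMon1 and 1.71 ± 0.09 in TuMon2, and Srgn, the proteoglycan core on which proteases are packed, rose by 2.20 ± 0.12 in TuMon1 and 2.82 ± 0.12 in TuMon2. Serpinb1a, an inhibitor of elastase and its relatives, differed by -4.70 ± 0.33 in TuMon1 (-5.30 without the foreign-RNA libraries) and -4.07 ± 0.30 in TuMon2. Fcnb, a ficolin of early granulocytes, fell by 5.19 ± 0.44 in TuMon2, where it was at 1.34 ± 0.14 CPM, against 49.6 CPM in LLC spleen monocytes. After LLC supernatant 4 rose and 3 fell (4 and 4 without the foreign-RNA libraries). Ms4a3, a marker of granulocyte-monocyte progenitors and their progeny, was down to 1 count over the LLC supernatant cultures, against 32.8 ± 3.89 CPM in control cells, and Fcnb differed by -8.94 ± 0.23 there. In both tumor monocyte groups the 4 that rose were Cd63, Ctsc, Srgn and Calr, and the 4 that fell were Ms4a3, Fcnb, Serpinb1a and Lyz2, the lysozyme gene of myeloid cells; these were listed after their values were seen.

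Of 16 other genes of specific, gelatinase and secretory granules, 14 were tested. In TuMon1 10 fell and 4 rose (11 and 2 of 15 without the foreign-RNA libraries), in TuMon2 9 fell and 3 rose, after MC38 supernatant 10 fell and 3 rose, and after LLC supernatant 11 fell and 3 rose. In the macrophages 11 of 14 fell in each tumor. Cd177, a neutrophil surface glycoprotein, differed by -3.43 ± 0.19 in TuMon1, -8.56 ± 0.27 in MC38 macrophages, -5.91 ± 0.15 after MC38 and -8.96 ± 0.19 after LLC supernatant. Hp, which encodes haptoglobin, differed by -3.43 ± 0.20 in TuMon1 and -6.69 ± 0.15 after LLC supernatant. Pglyrp1, a peptidoglycan-binding granule protein, differed by -5.39 ± 0.33 in TuMon1 and -3.70 ± 0.30 in TuMon2, and Chil3, a chitinase-like lectin, differed by -5.11 ± 0.12 after MC38 and -7.40 ± 0.13 after LLC supernatant.

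Adam8, a membrane metalloprotease, went the other way in every one of these comparisons. It rose by 5.21 ± 0.34 in TuMon1 and 5.57 ± 0.35 in TuMon2, and by 7.83 ± 0.10 after MC38 and 7.81 ± 0.10 after LLC supernatant, where it was at 1916 ± 250.2 CPM (MC38) and 1947 ± 14.8 CPM (LLC), against 8.64 ± 0.763 CPM in control cells. Slpi, an inhibitor of elastase and cathepsin G, rose by 2.54 ± 0.18 in TuMon2. Mmp8, the neutrophil collagenase, was named after its values were seen: it rose by 2.93 ± 0.11 after MC38 and 3.07 ± 0.11 after LLC supernatant, and differed by -1.14 ± 0.23 in TuMon1 and -0.60 ± 0.22 in TuMon2. Among 10 receptors and inhibitors of granule proteins, 5 rose and 5 fell in TuMon1 (4 and 2 without the foreign-RNA libraries), 6 rose and 1 fell in TuMon2, and 5 rose and 4 fell after either supernatant. Tlr4, a receptor for calprotectin, rose in TuMon1 (1.66 ± 0.15) and TuMon2 (1.51 ± 0.15), and by 3.33 ± 0.12 after MC38 and 2.74 ± 0.12 after LLC supernatant. Serpinb6a, which inhibits cathepsin G, rose by 4.8 ± 0.15 after MC38 and 5.88 ± 0.16 after LLC supernatant.

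**Figure D5:**
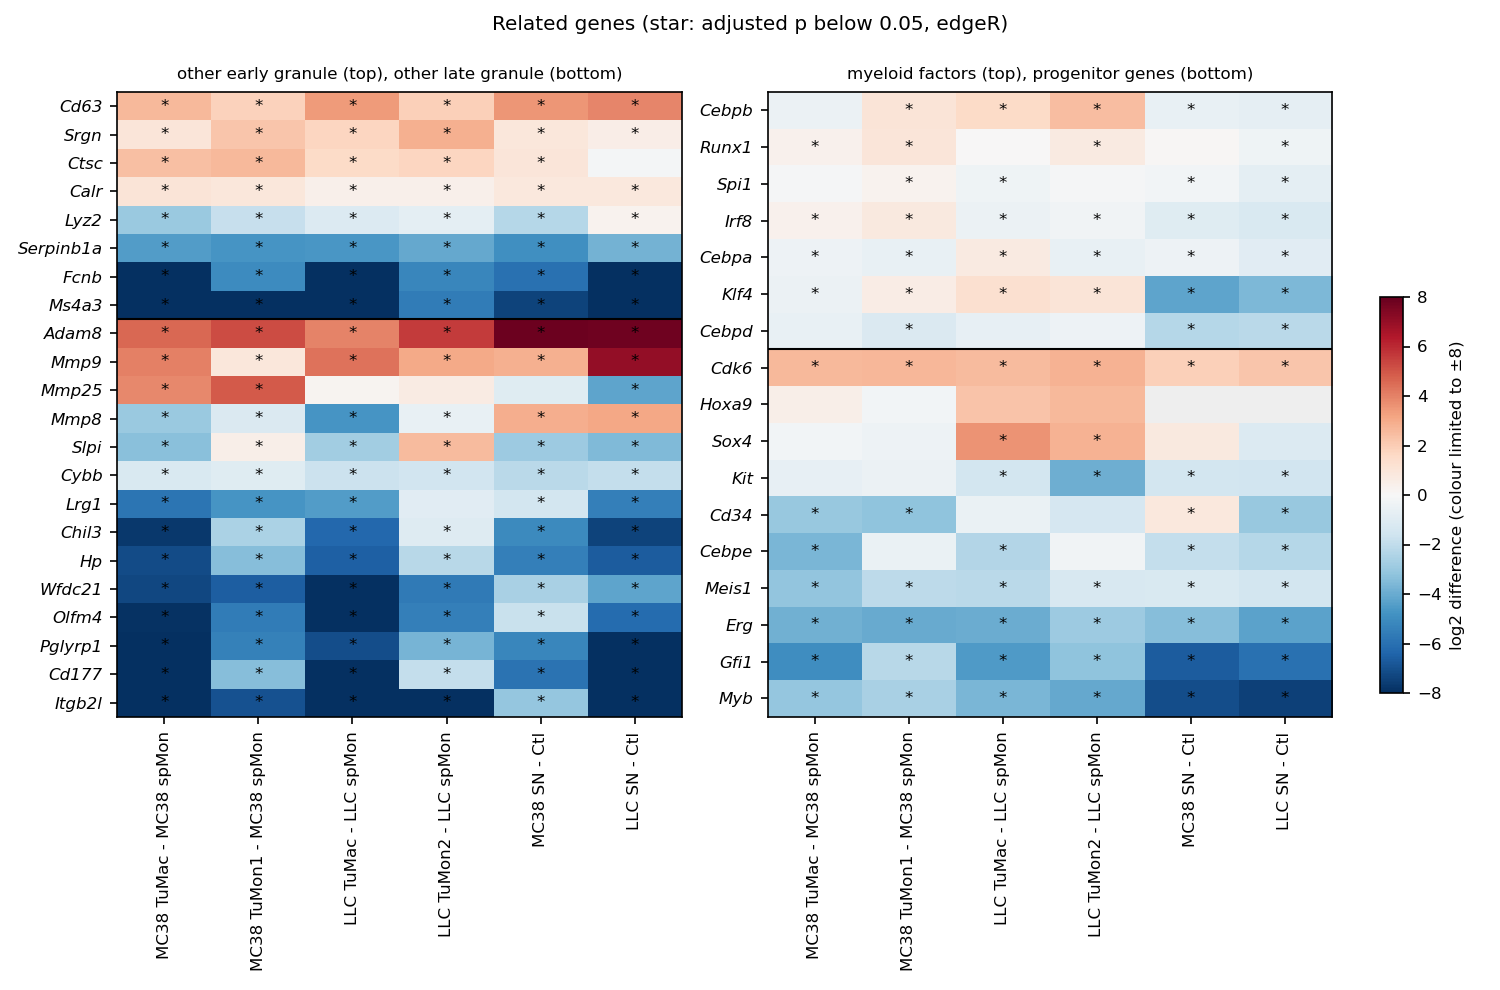
Log2 differences of related genes (rows) by comparison (columns), coloured from lower to higher and limited to ±8, with stars at an edgeR adjusted p under 0.05 and grey where a gene was not tested. The left panel holds the other early and late granule genes and the right panel the myeloid transcription factors and progenitor genes; Adam8 is higher and Cd177 lower across the columns of TuMon1, TuMon2 and both supernatants.

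Transcription factors of granulocyte and monocyte differentiation were read beside the members, and not all of them drive granule genes. Of 10 myeloid factors 0 rose and 9 fell after MC38 supernatant (1 and 9 without the foreign-RNA libraries), where 32.5% of all genes fell. All 10 fell after LLC supernatant, where 36.1% of all genes fell. Myb differed by -7.08 ± 0.37 after MC38 and -7.45 ± 0.38 after LLC supernatant, with 39.4 ± 5.71 CPM in control cells. Gfi1, which is needed for granulocyte maturation, differed by -6.66 ± 0.61 after MC38 and -5.95 ± 0.57 after LLC supernatant, and Cebpe, the factor of specific granule genes, by -1.91 ± 0.20 after MC38 and -2.27 ± 0.20 after LLC supernatant. Klf4, a factor of monocyte differentiation, differed by -4.22 ± 0.21 (MC38) and -3.58 ± 0.21 (LLC). In tumors the list was divided. In TuMon1 5 rose and 4 fell (2 and 4 without the foreign-RNA libraries), and in TuMon2 3 rose and 4 fell. Gfi1 differed by -2.23 ± 0.75 in TuMon1 and -3.22 ± 0.72 in TuMon2, while Cebpe differed by -0.54 ± 0.28 (edgeR adjusted p = 0.0861) in TuMon1 and by -0.30 ± 0.27 (0.355) in TuMon2 without passing. Gfi1 stood at -3.09 in TuMon1 without the foreign-RNA libraries, and Cebpe passed there (-1.48, edgeR adjusted p = 3.24e-05).

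The lists of progenitor and of mature neutrophil genes did not move with the members in every comparison. The summed CPM of 10 progenitor genes, among them the factors Myb, Gfi1 and Cebpe, was 56.6 to 62.0 after MC38 and 42.2 to 46.1 after LLC supernatant, against 92.3 to 108 in control cultures. It was 32.9 to 39.0 in TuMon1 and 37.9 to 45.3 in TuMon2, against 40.7 to 76.5 in MC38 and 30.9 to 38.7 in LLC spleen monocytes. Of the list 2 rose and 6 fell after MC38 supernatant, and 1 rose and 7 fell after LLC supernatant. Kit, the stem cell factor receptor, was at 2.41 ± 2.04 CPM (MC38) and 2.51 ± 0.232 CPM (LLC), against 7.23 ± 0.947 CPM in controls. In the tumors 1 rose and 5 fell in TuMon1 (2 and 5 without the foreign-RNA libraries), and 2 rose and 5 fell in TuMon2. The progenitor marker Cd34 did not follow the members in culture: with MC38 supernatant it was at 20.1 ± 1.06 CPM, and with LLC supernatant at 1.41 ± 0.131 CPM, against 11.6 ± 1.71 CPM in control cells. In TuMon1 Cd34 differed by -3.21 ± 0.49, but by 0.28 without the foreign-RNA libraries (edgeR adjusted p = 0.58), and in TuMon2 by -1.35 ± 0.61 (adjusted p = 0.0599).

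The mature neutrophil list summed to 536 to 652 CPM in TuMon1, against 349 to 539 CPM in MC38 spleen monocytes, and to 276 to 319 CPM in TuMon2, against 484 to 591 CPM in LLC spleen monocytes. With MC38 supernatant it summed to 117 to 157 CPM, and with LLC supernatant to 70.2 to 74.9 CPM, against 308 to 383 CPM in control cultures. Most of the sum in spleen and control libraries was Csf3r, the G-CSF receptor, which monocytes also express. Csf3r differed by -0.33 ± 0.11 in TuMon1, -1.39 ± 0.11 in TuMon2, -1.36 ± 0.08 after MC38 and -2.21 ± 0.09 after LLC supernatant, all past the threshold. In TuMon1 the decoy receptor gene Il1r2, at 307 ± 56.4 CPM against 4.03 ± 3.62 CPM in MC38 spleen monocytes, was of similar size (Csf3r 286 ± 13.5 CPM). Mrgpra2b was at 0 in both tumor monocyte groups, and Stfa2 was at 0 there and in the spleen monocytes and control cultures, although reads of these multigene families can be shared among copies. Ly6g, the defining surface marker of mouse neutrophils, was at 5.8 ± 1.05 CPM in TuMon1, against 2.68 ± 1.27 CPM in MC38 spleen monocytes (log2 difference 1.11 ± 0.37, edgeR adjusted p = 0.00959). It was at 1.7 ± 0.336 CPM in TuMon2, against 3.25 ± 1.06 CPM in LLC spleen monocytes (-0.92 ± 0.38, adjusted p = 0.0392). The difference of Ly6g in TuMon1 was 0.34 without the foreign-RNA libraries and did not pass (edgeR adjusted p = 0.565). In macrophages Ly6g differed by -2.01 ± 0.41 in MC38 (-2.78 without the foreign-RNA libraries) and -3.75 ± 0.47 in LLC, and 6 of the 7 tested genes of the list fell in each. After LLC supernatant Ly6g was down to 1 count over the group, against 2.22 ± 0.466 CPM in control cells. Cxcr2, the receptor that calls neutrophils to tissue, differed by -0.30 ± 0.22 in TuMon1 and -0.09 ± 0.21 in TuMon2 without passing (-0.80 in TuMon1 without the foreign-RNA libraries, edgeR adjusted p = 0.0261). Of the 7 list members tested, 2 rose and 4 fell in TuMon1 (1 and 5 without the foreign-RNA libraries) and 1 rose and 5 fell in TuMon2. After MC38 supernatant 2 rose and 3 fell, and after LLC supernatant 0 rose and 5 fell.

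Markers of other cell types were summed beside the members. The 5 dendritic cell genes summed to 4.56 to 5.96 CPM in TuMon1, against 30.2 to 38.3 CPM in MC38 spleen monocytes, and to 1.95 to 4.82 CPM in TuMon2, against 51.6 to 57.4 CPM in LLC spleen monocytes, and 4 of the 5 fell in each (3 in TuMon1 without the foreign-RNA libraries). In the macrophages they summed to 7.5 to 16.8 CPM (MC38) and 3.47 to 6.61 CPM (LLC). In culture they summed to 1.35 to 1.52 CPM with MC38 supernatant, and with LLC supernatant to 0.601 to 0.771 CPM, against 21.9 to 29.9 CPM in control cells. Siglech, a gene of plasmacytoid dendritic cells, was at 0 in TuMon2, LLC macrophages, LLC supernatant and control cultures. The 5 B cell genes summed to 6.92 to 8.51 CPM in TuMon1, against 11.5 to 16.2 CPM in MC38 spleen monocytes, and to 2.71 to 5.45 CPM in TuMon2, against 14.9 to 20.2 CPM in LLC spleen monocytes; in MC38 macrophages they reached 29.8 to 32.8 CPM. The 6 T and NK cell genes summed to 2.79 to 4.35 CPM in TuMon1, against 4.22 to 6.0 CPM in MC38 spleen monocytes, and to 1.36 to 2.81 CPM in TuMon2, against 9.83 to 16.9 CPM in LLC spleen monocytes. Red cell genes summed to 0.458 to 2.86 CPM in TuMon1, against 3.06 to 660.5 CPM in MC38 spleen monocytes. In TuMon2 they summed to 0.636 to 3.04 CPM, against 6.23 to 9.91 CPM in LLC spleen monocytes. Most of the MC38 spleen libraries carried foreign RNA. Connective tissue genes summed to up to 974 CPM there, against at most 0.996 CPM in LLC spleen monocytes. The part of foreign RNA in the red cell sum was not tested. The sum of the 10 classical monocyte genes went the other way in LLC. It was 22041 to 25776 CPM in TuMon2, against 13041 to 15154 CPM in LLC spleen monocytes. Gene by gene this list was divided: without the foreign-RNA libraries, 4 of the 10 were higher in TuMon2 and 3 lower. In MC38 the sums overlapped, with 9370.2 to 11084 CPM in TuMon1, against 7986 to 11182 CPM in MC38 spleen monocytes. The part of neutrophils, progenitors or any of these cells in the members' levels was not tested.

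Macrophage genes went opposite to the members. Of 10, all rose in TuMon1, in both macrophage groups and after both supernatants, and 9 rose in TuMon2. C1qa, a complement gene of tissue macrophages, rose by 11.40 ± 0.18 after MC38 and 11.09 ± 0.18 after LLC supernatant.

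Across the 9 group means, the genes most like each class were ranked by Pearson's r with the mean log2 level of the class, over 9775 genes whose mean reached 10 CPM in at least 1 group. This is a description over 9 points that share libraries, and r compares the pattern, not the size of the change. For the azurophil class they were Dnah8 (0.982), an axonemal dynein heavy chain, Map3k7 (0.969), Ncam1 (0.968), Alkbh4 (0.966) and Tesk2 (0.966). Dnah8 was at 69.8 CPM in control cultures and at most 5.74 CPM in any other group, but Map3k7 ran only from 57.7 CPM (MC38 macrophages) to 102 CPM (control cultures). For the specific granule class they were Wfdc21 (0.987), Itgb2l (0.981), Zdhhc7 (0.977), Papolg (0.976) and Zfp866 (0.973), and for the S100 pair Wfdc21 (0.986), the pseudogene Tmem181b-ps (0.979), whose reads may be shared with its parent, Zdhhc7 (0.977), Itgb2l (0.970) and Inpp5f (0.969). Wfdc21 and Itgb2l, which were also on the list of late granule genes, were shared by the specific granule and S100 classes, and no gene was shared with the azurophil class. From MC38 macrophages to LLC spleen monocytes Wfdc21 ran from 0.0208 to 16.8 CPM, but Zdhhc7 only from 42.0 to 91.3 CPM and Papolg from 10.1 to 23.6 CPM.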

How the data were processed

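Poly(A) RNA was sequenced from 100 ng of RNA per library with a strand-specific kit and 14 PCR cycles, per the labels' protocols. The authors deposited unscaled expected counts (estimated counts) of genes by Entrez ID, with the 34 libraries in 1 table. CASAVA 1.8.2 and the builds GRCm38 and mm10 are named in the submitters' processing notes; the sources used here give neither aligner nor counter. Of the values 14.48% were not whole, so these expected counts were rounded, although whole counts had been assumed; the members' counts were whole in all libraries. Names and coordinates came from RefSeq GRCm38.p6 (24375 of 24475 IDs matched).

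Libraries from mice (24) and cultures (10) were fitted separately in edgeR 4.0.16 under R 4.3.3, with filterByExpr, TMM scaling, the quasi-likelihood test and Benjamini-Hochberg adjustment at 0.05 over 13200 and 12603 genes. Levels are CPM with TMM factors over all libraries, and SD is over replicates. The SE of an edgeR log2 difference was derived from the test, as its size divided by the square root of F. Groups at 0 counts were bounded against 3 counts over the group. Replicates were compared pair by pair, and the 48 pairs differed by more than sampling noise (lowest dispersion index 4.90). The fits were tested on simulated counts.

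Every result was also computed with RLE or upper quartile scaling, without a filter, with a filter of 5 CPM in at least 3 libraries, with DESeq2 1.42.0, with only the groups compared, with a replicate block, with each library left out and, chosen after seeing the data, with all 5 foreign-RNA libraries left out. Members and lists were chosen with earlier results of these data known. Beside the 10 members the text names up to 4 genes of a list with the smallest adjusted p, Ly6g, Cxcr2, Csf3r, Kit, Cd34, Gfi1 and Cebpe, and the 5 genes most similar to each class. Figures were drawn with matplotlib 3.10.9.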

Additional observations from a re-analysis of the deposited data

Results flagged for a closer look

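In groups of 4 libraries with a mean of at least 1 CPM, 13 of 41 combinations of member and group had 1 library that stood apart. Its distance from the nearest other exceeded 0.829 of the range, which about 1 in 20 groups of 4 normal values would exceed. CPM on a linear scale need not be normal, so this rate is only a guide. The members are not independent of each other here, since 1 library carries most of them. MC38 spleen replicate 4 stood high for Mpo (25.7 CPM), Ngp (1149.8), Ltf (526.3), Camp (205), Lcn2 (288), S100a8 (432) and S100a9 (1133), and it is the library of that group without fat cell transcripts. Control culture replicate 2, the one with Actc1, stood low for Elane (278 CPM), Ngp (148) and Camp (81.9). The remaining single values were S100a8 at 2.76 CPM in TuMon1 replicate 4 (high), S100a8 at 502 CPM in LLC spleen replicate 1 (low) and S100a9 at 4.54 CPM in LLC macrophage replicate 4 (high).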

How the results depend on the processing

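In the 6 comparisons of tumor with spleen groups and of supernatant with control cultures, all 1636 member values over all alternatives kept their direction. The log2 difference closest to 0 was -1.16. Leaving out a library and the 5 foreign-RNA libraries was included, and a member that a filter removed gave no value. No p is given here, since several members passed the filter on low counts through spleen libraries or other cultures. Between spleens, the fit of only the groups compared called 944 genes and 2 members, and leaving out the foreign-RNA libraries called 22 genes and 0 members, with Ngp at 0.0602 and Ltf at 0.0105; without 1 library the genes called ranged from 2525 to 6640. With only the groups compared, 4 members were called between LLC macrophages and TuMon2. Between MC38 and LLC macrophages 1 member was called with the replicate block and 1 with DESeq2, and Ltf was at -0.0020 with the block and -0.0458 with DESeq2. The interaction without the foreign-RNA libraries called 3600 genes and 4 members, with Mpo at -0.72 and Ngp at -1.10; DESeq2 gave Ngp -0.0343, and the replicate block Ltf 0.0612 and S100a9 0.0412. The cause of these changes was not tested. Without 1 library at a time, MC38 macrophages against TuMon1 called 1 to 3 members (Ngp -1.26 to 0.32). MC38 against LLC macrophages then gave Ngp -0.18 to 2.07, Ltf -0.38 to 1.28 and S100a9 -0.18 to 0.42. The interaction gave Mpo -0.38 to 0.83, Ctsg -0.47 to 1.0, Ngp -0.59 to 1.05, Ltf -0.73 to 0.59, S100a8 -1.03 to 0.25 and S100a9 -0.44 to 0.66. Over all 13 comparisons 3368 of 3489 member values kept direction and call, 72 no longer passed, 13 newly passed and 36 reversed. Upper quartile scaling shifted the median of all genes by up to 0.146 (LLC macrophages against TuMon2). Correlations of same-numbered libraries ran from -0.362 to 0.298 and were never above 0.1 in every pair of a comparison. The main fits were therefore unpaired, but such correlations cannot exclude that the numbers pair the samples. Below about 1 CPM the counts limit every value in tumor groups.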
